A study of Homo sapiens with 6 samples.

Results

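The CDK inhibitors and D-type cyclins are the genes that set how readily a cell leaves G1 for DNA synthesis. The set held 10 of the 60554 counted genes and was chosen by name. It comprised 7 inhibitors (CDKN1A, CDKN1B, CDKN1C, CDKN2A, CDKN2B, CDKN2C and CDKN2D) and 3 cyclins (CCND1, CCND2 and CCND3). Of these, 8 passed the filter on low counts and were tested, and CDKN2A and CDKN2B did not.

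RNA was profiled in Daoy, a long-established line grown from a human medulloblastoma (a tumour of the cerebellum), after lentiviral overexpression of the transcription factor ZBTB7B. In the ZFmut group (n = 3 libraries) the transduced ZBTB7B carried the R363L substitution in its zinc-finger domain. In the WT group (n = 3 libraries) the transduced ZBTB7B was the wild-type protein. Both groups were exposed to virus for 72 hr, with a multiplicity of infection of 15, so both groups carried a ZBTB7B transgene and no untransduced library was analysed here. The labels also give 4 days of growth and 10% serum for both groups. Whether the 3 libraries of a group are separate cultures is not stated, and the p-values reflect only how far these libraries scatter, which could be technical scatter.

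D-type cyclins bind and activate the kinases CDK4 and CDK6, which phosphorylate the retinoblastoma protein RB1 and so free the E2F factors that switch on S-phase genes. Inhibitors of the INK4 class (CDKN2A to CDKN2D) bind CDK4 and CDK6 directly, whereas those of the CIP/KIP class (CDKN1A to CDKN1C) bind assembled cyclin and CDK complexes, including those of CDK2. In the mouse cerebellum, Ccnd1 and Ccnd2 serve the proliferation of granule neuron precursors, and Cdkn1b and Cdkn2c restrain it.

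Gene counts per library ranged from 22236214 to 102730428. The first principal component held 79% of the variance and separated the groups. On the second, which held 11.1%, replicate 1 stood apart from the other libraries of its group in both groups. The scores were 13.1, −5.89 and −4.16 in ZFmut replicates 1, 2 and 3, and 5.84, −4.53 and −4.36 in WT replicates 1, 2 and 3. Counts of ZBTB7B, which sum the transgene and the cell's own gene, were 555, 547 and 627 CPM (read counts scaled to library size) in ZFmut replicates 1, 2 and 3, against 899, 863 and 951 CPM in WT replicates 1, 2 and 3. The 2 groups therefore differed in ZBTB7B level as well as in its sequence, by −0.65 ± 0.06 (log2, SE; edgeR adjusted p = 1.39e-06), and these cannot be told apart. Of 5 neural progenitor markers, NES, SOX2 and MSI1 were called higher in ZFmut (0.45, 0.84 and 0.62), and VIM, at 633 to 705 CPM in ZFmut libraries and 659 to 667 CPM in WT libraries, and SOX9 did not pass. Of the granule neuron precursor markers, ZIC1, ZIC2, PAX6 and OTX2 were measured and none passed, while ATOH1, the factor that defines granule neuron precursors, stood at 0 to 0.125 CPM in ZFmut libraries and at 0 to 0.0345 CPM in WT libraries.

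Throughout, levels are CPM scaled by TMM factors, and differences are log2 values of ZFmut minus WT from edgeR's quasi-likelihood test, with p-values adjusted over all 18683 tested genes by the Benjamini-Hochberg method and a threshold of 0.05. Of the 8 tested members, 1 was higher in ZFmut (CDKN1C), 4 were lower (CDKN1A, CDKN1B, CDKN2D and CCND2) and 3 did not pass (CDKN2C, CCND1 and CCND3). Over all tested genes, 35.6% passed, 17.2% higher and 18.4% lower, and the 62.5% of tested members that passed is to be read against that share. With the replicate number as a block, 1 member was higher and 5 were lower. Of the 18683 tested genes, 4226 were then higher and 4466 lower. The ZFmut and WT libraries did not overlap for 6 of the 8 members, against 47.2% of all tested genes. In RNA of bulk cultures, fewer cells that express a gene and less RNA per cell cannot be told apart.

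**Figure D1:**
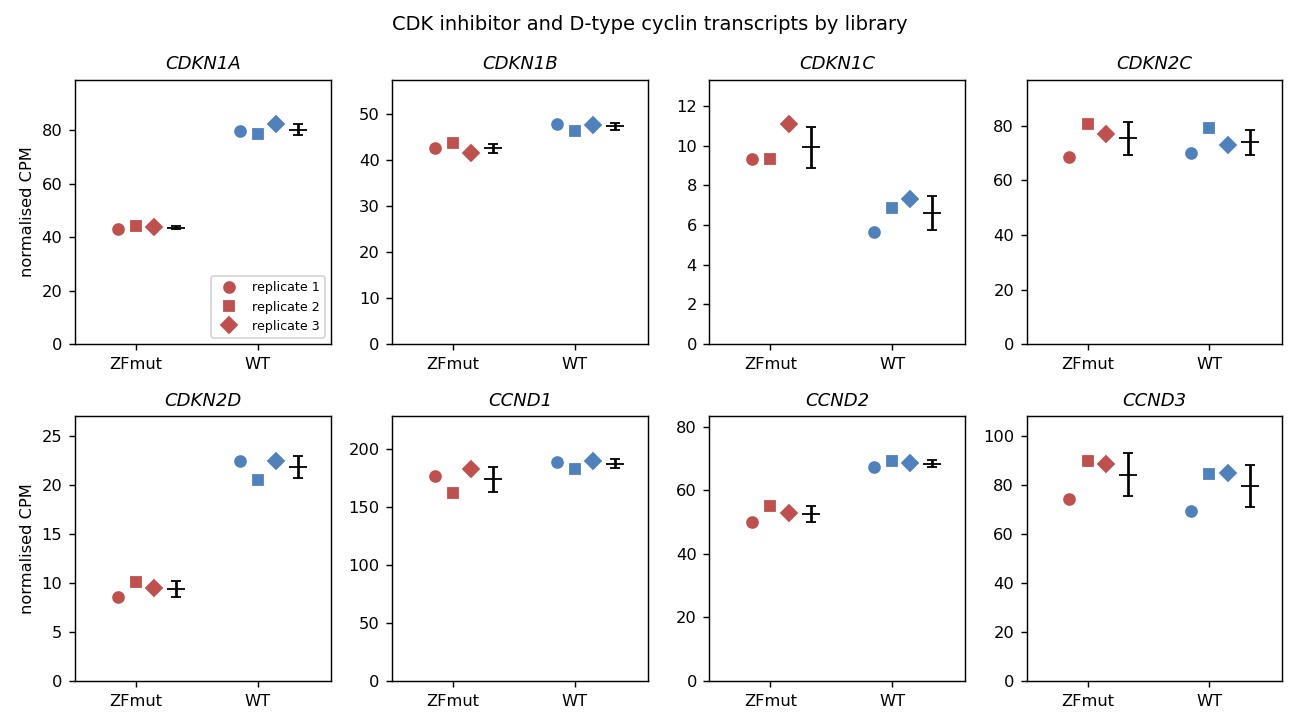
Normalised CPM of the 8 tested members (vertical axes, each from 0) in each library of the ZFmut group (red, left) and the WT group (blue, right). Symbols mark the replicate number, and the black bars give the mean ± SD of 3 libraries. CDKN1A and CDKN2D show the widest gaps, with ZFmut means of 43.6 and 9.38 CPM against WT means of 80.2 and 21.8 CPM.

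Promoter sequences were available for 7 of the 10 members. Shown here are the 250 bases upstream of a RefSeq start of the 3 inhibitors that were lower in ZFmut libraries. They are on GRCh38.p14, 5′ to 3′ on the gene's strand. These starts differ from the ends of the gene spans given for each gene below. The CDKN1A and CDKN1B windows lie inside those spans, and the CDKN2D window overlaps its span. Capitals mark motif matches on either strand. The motifs were the GC box, spelled GGGCGG, and the box named for its letters CCAAT. A GC box on the opposite strand appears as CCGCCC. The windows are chr6:36678464-36678713 (plus strand) for CDKN1A, chr19:10568980-10569229 (minus strand) for CDKN2D and chr12:12717118-12717367 (plus strand) for CDKN1B.
CDKN1A: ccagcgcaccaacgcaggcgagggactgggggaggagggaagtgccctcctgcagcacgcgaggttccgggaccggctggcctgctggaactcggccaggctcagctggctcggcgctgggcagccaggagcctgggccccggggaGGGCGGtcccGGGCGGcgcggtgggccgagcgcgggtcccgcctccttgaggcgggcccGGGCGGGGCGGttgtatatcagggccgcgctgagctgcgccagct
CDKN2D: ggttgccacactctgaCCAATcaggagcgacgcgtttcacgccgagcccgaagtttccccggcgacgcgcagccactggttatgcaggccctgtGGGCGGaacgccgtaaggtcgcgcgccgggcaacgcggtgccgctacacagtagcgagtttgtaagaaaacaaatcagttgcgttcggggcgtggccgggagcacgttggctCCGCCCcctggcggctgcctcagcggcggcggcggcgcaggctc
CDKN1B: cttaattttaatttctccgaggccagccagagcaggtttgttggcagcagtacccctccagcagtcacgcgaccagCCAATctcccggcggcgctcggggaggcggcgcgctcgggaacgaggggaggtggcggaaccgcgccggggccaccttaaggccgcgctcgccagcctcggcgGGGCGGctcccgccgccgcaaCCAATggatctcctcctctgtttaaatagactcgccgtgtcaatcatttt
The CDKN1A window had 76.4% GC and held 4 GC boxes, of which the last pair overlap. The CDKN2D window had 67.6% GC with 2 GC boxes and 1 CCAAT box, and the CDKN1B window had 64.4% GC with 1 GC box and 2 CCAAT boxes. Neither TATAAA nor CACGTG was found in these 3 windows. Among all 35116 RefSeq promoter windows of this length, 42.6% held a GC box, 32% a CCAAT box, 10.7% TATAAA and 6.3% CACGTG. CDKN2C, which did not pass the test, had windows at 3 starts with 0, 5 and 1 GC boxes.

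Among the CIP/KIP inhibitors, CDKN1A (ENSG00000124762.13, chromosome 6, 36676460 to 36687339, plus strand), which encodes p21, a broad inhibitor of CDK2 complexes, was lower in ZFmut cells. It stood at 42.9, 44.1 and 43.8 CPM in ZFmut replicates 1, 2 and 3, against 79.8, 78.4 and 82.4 CPM in WT replicates 1, 2 and 3. Every ZFmut library lay far below every WT library, and the spread within each group was small. The means were 43.6 ± 0.594 CPM in ZFmut and 80.2 ± 2.03 CPM in WT (SD, n = 3 each), a 1.84-fold lower level in ZFmut with a log2 difference of −0.88 ± 0.05 (SE; 95% interval −0.99 to −0.77; edgeR adjusted p = 1.31e-08). An absolute log2 difference at least as large was seen in 5.67% of all tested genes.

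CDKN1B (ENSG00000111276.10, chromosome 12, 12715058 to 12722371, plus strand) encodes p27, an inhibitor whose protein is controlled largely by degradation. Its levels were 42.6, 43.6 and 41.6 CPM in ZFmut replicates 1, 2 and 3, against 47.8, 46.4 and 47.6 CPM in WT replicates 1, 2 and 3. All ZFmut libraries lay below all WT libraries, by a narrow margin. The means were 42.6 ± 0.979 CPM in ZFmut and 47.3 ± 0.784 CPM in WT (SD, n = 3 each). The log2 difference was −0.15 ± 0.05 (SE; 95% interval −0.27 to −0.04; edgeR adjusted p = 0.0412). This call was lost on leaving out any single library (edgeR adjusted p = 0.0537 to 0.169) and under median-of-ratios or upper-quartile scaling, DESeq2 or no count filter.

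CDKN1C (ENSG00000129757.13, chromosome 11, 2883213 to 2885773, minus strand) encodes p57, an imprinted inhibitor of differentiating cells, and moved the other way. It stood at 9.33, 9.30 and 11.1 CPM in ZFmut replicates 1, 2 and 3, against 5.63, 6.88 and 7.31 CPM in WT replicates 1, 2 and 3. The lowest ZFmut library was above the highest WT library. These levels rest on 209, 223 and 1131 reads in ZFmut and 163, 391 and 231 reads in WT, the smallest counts of the tested members beside those of CDKN2D. CDKN1C was 1.52-fold higher in ZFmut, with a log2 difference of 0.60 ± 0.11 (SE; 95% interval 0.37 to 0.84; edgeR adjusted p = 0.000694). With GC content and exon length corrected and the replicate number as a block, the difference was 0.39 (edgeR adjusted p = 0.000572).

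Among the INK4 inhibitors, CDKN2D (ENSG00000129355.6, chromosome 19, 10566462 to 10569059, minus strand), which encodes p19, had the largest difference of the 8 tested members. It stood at 8.52, 10.1 and 9.52 CPM in ZFmut replicates 1, 2 and 3, against 22.4, 20.5 and 22.5 CPM in WT replicates 1, 2 and 3. The groups were far apart and did not overlap. The level was 2.31-fold lower in ZFmut, with means of 9.38 ± 0.797 CPM in ZFmut and 21.8 ± 1.11 CPM in WT (SD, n = 3 each) and a log2 difference of −1.21 ± 0.08 (SE; 95% interval −1.38 to −1.035; edgeR adjusted p = 5.52e-08).

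CDKN2C (ENSG00000123080.10, chromosome 1, 50960745 to 50974633, plus strand), which encodes p18, did not pass the test. It stood at 68.7, 80.7 and 76.8 CPM in ZFmut replicates 1, 2 and 3, against 69.9, 79.0 and 72.8 CPM in WT replicates 1, 2 and 3. The groups overlapped, and replicate 1 was the lowest library in both. The log2 difference was 0.03 ± 0.06 (SE; edgeR adjusted p = 0.779), and its 95% interval was −0.11 to 0.17. After correction for GC content and length the sign turned and the test passed, at −0.11 (edgeR adjusted p = 0.0255).

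**Figure D2:**
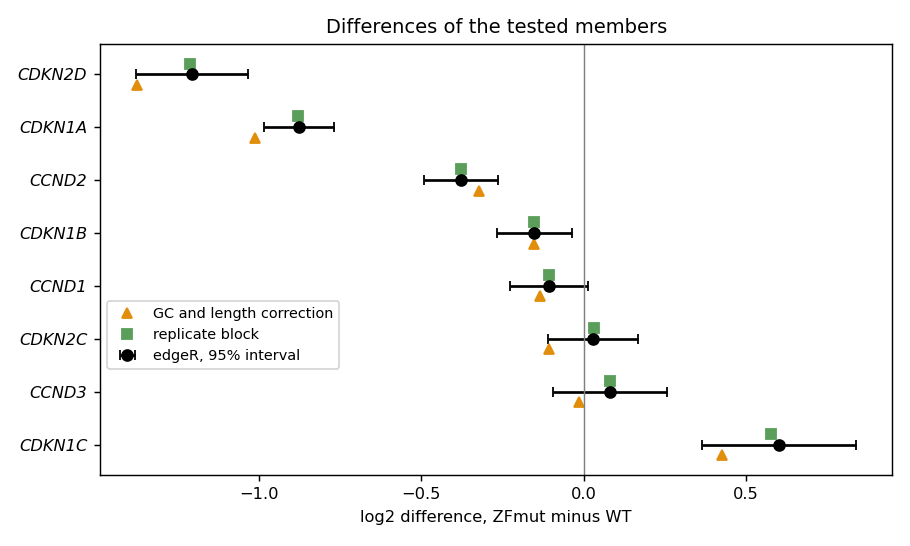
Log2 difference of ZFmut minus WT (horizontal axis) for the 8 tested members, with the edgeR value and its 95% interval in black. Squares show the fit with the replicate number as a block and triangles the fit corrected for GC content and length. CDKN2D, CDKN1A and CCND2 lie below 0 and CDKN1C above 0 in all 3 fits, and CDKN2C and CCND3 change sign with the GC correction.

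CDKN2A, which encodes p16 and, from another reading frame, ARF, and its neighbour CDKN2B, which encodes p15, were all but absent from the counts. CDKN2A (ENSG00000147889.17, chromosome 9, 21967753 to 21995301, minus strand) had 1 read in all 6 libraries, in ZFmut replicate 3. CDKN2B (ENSG00000147883.10, chromosome 9, 22002903 to 22009363, minus strand) had 0 reads. A count of 0 allows up to 3 reads, which is 0.0294 to 0.134 CPM in ZFmut libraries and 0.0528 to 0.104 CPM in WT libraries, by counting error alone. No fold was formed.

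The genes around them had next to no reads over a wide stretch. MLLT3 and FOCAD, on the lower-coordinate side, had 4374 and 2565 reads over the 6 libraries, with log2 differences of −0.14 and −0.02 (edgeR adjusted p = 0.189 and 0.883). Between FOCAD and the next gene with at least 10 reads, the lincRNA AL356133.2 with 81 reads, lay 5.81 Mb with 76 counted genes. Of these, 73 had 0 reads, and CDKN2A, HACD4 and AL451137.1 had 1 read each. The genes with 0 reads included MTAP, a metabolic enzyme gene that most cells express, KLHL9, DMRTA1, ELAVL2, MIR31HG, the antisense CDKN2B-AS1 and the interferon genes IFNB1, IFNA1, IFNA2 and IFNE. Of the 26 protein-coding genes in the stretch 24 had 0 reads. Over all 19664 protein-coding genes counted, 7.8% had 0 reads. The stretch was drawn to end where reads resume, so its high share was partly fixed in advance and is no test. A silent gene and a missing gene give the same count and cannot be told apart here.

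**Figure D3:**
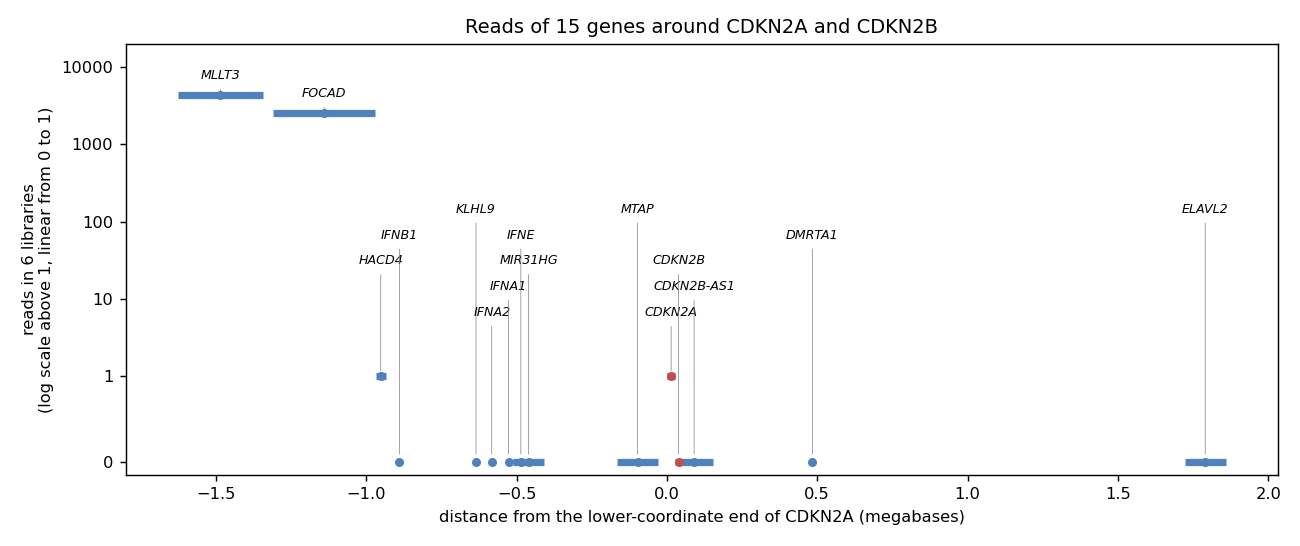
Reads summed over the 6 libraries (vertical axis, log scale above 1 and linear from 0 to 1) for 15 genes around CDKN2A and CDKN2B (red), by distance from the lower-coordinate end of CDKN2A in megabases. MLLT3 and FOCAD had 4374 and 2565 reads, and each other gene shown had 0 or 1.

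Among the D-type cyclins, CCND2 (ENSG00000118971.7, chromosome 12, 4273772 to 4305350, plus strand), the cyclin of the later cerebellar precursors in the mouse, was lower in ZFmut cells. It stood at 50.1, 55.0 and 52.7 CPM in ZFmut replicates 1, 2 and 3, against 67.2, 69.4 and 68.6 CPM in WT replicates 1, 2 and 3. The groups did not overlap. The level was 1.30-fold lower in ZFmut, with a log2 difference of −0.38 ± 0.05 (SE; 95% interval −0.49 to −0.26; edgeR adjusted p = 7.54e-05). CCND2 shares 13.8% of its exonic sequence with another annotated gene on its strand, so its counts are less certain.

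CCND1 (ENSG00000110092.3, chromosome 11, 69641087 to 69654474, plus strand), a mitogen-responsive cyclin, was the most abundant member. It stood at 177, 162 and 182.9 CPM in ZFmut replicates 1, 2 and 3, against 188.9, 183.0 and 190.3 CPM in WT replicates 1, 2 and 3. The ZFmut libraries all lay below the WT libraries, although the highest ZFmut library almost reached the lowest WT library. The log2 difference, −0.11 ± 0.06 (SE; 95% interval −0.23 to 0.01), did not pass (edgeR adjusted p = 0.163). With the replicate number as a block it did, at −0.11 (edgeR adjusted p = 0.0123). The value was −0.05 without ZFmut replicate 2 (edgeR adjusted p = 0.470). Of its exonic sequence, 10.3% overlaps LTO1 on the other strand.

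CCND3 (ENSG00000112576.12, chromosome 6, 41934933 to 42050357, minus strand) is the D-type cyclin best known from lymphocytes. It stood at 74.0, 89.9 and 88.3 CPM in ZFmut replicates 1, 2 and 3, against 69.4, 84.2 and 84.8 CPM in WT replicates 1, 2 and 3. The groups overlapped, and replicate 1 was again the lowest library in both. The log2 difference of 0.08 ± 0.08 (SE; 95% interval −0.09 to 0.26) did not pass (edgeR adjusted p = 0.473), and its sign turned with the GC correction. It was 0.18 without ZFmut replicate 1 (edgeR adjusted p = 0.0648) and 0.004 without WT replicate 1 (edgeR adjusted p = 0.978).

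Per kilobase of exon, the levels of different genes can be set side by side. In ZFmut cells, CCND1 was highest at 36.0 ± 2.23 CPM per kb, followed by CDKN2C at 22.7 ± 1.84, CDKN1B at 15.2 ± 0.348, CCND3 at 14.5 ± 1.51, CDKN1A at 14.3 ± 0.195, CCND2 at 7.35 ± 0.347, CDKN2D at 6.24 ± 0.530 and CDKN1C at 4.00 ± 0.416 CPM per kb (SD, n = 3 each). In WT cells, CCND1 was at 38.8 ± 0.805, CDKN1A at 26.3 ± 0.664, CDKN2C at 22.3 ± 1.40, CDKN1B at 16.8 ± 0.279, CDKN2D at 14.5 ± 0.741, CCND3 at 13.7 ± 1.51, CCND2 at 9.55 ± 0.155 and CDKN1C at 2.67 ± 0.353 CPM per kb. Over all exons, CDKN1A thus held the fifth place in ZFmut cells and the second place in WT cells. In ZFmut cells the spread of CCND3 took in the levels of both CDKN1B and CDKN1A. In WT cells CDKN2D and CCND3 did not differ beyond their spread. These places depend on the length used. Over the longest coding transcript in place of all exons, CCND3 was at 35.1 ± 3.66 CPM per kb in ZFmut cells and 33.2 ± 3.66 in WT cells, and CDKN1A at 19.2 ± 0.262 in ZFmut cells and 35.4 ± 0.894 in WT cells. On that length CDKN1A took the fourth place in ZFmut cells, above CDKN1B at 16.0 ± 0.368, and in WT cells it did not differ from CCND3 beyond the spread of CCND3.

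Summed over the inhibitors, the level was 59.35, 64.72 and 63.13 CPM per kb in ZFmut replicates 1, 2 and 3, against 81.42, 82.44 and 83.79 CPM per kb in WT replicates 1, 2 and 3. The cyclin sum was 56.4, 56.72 and 60.46 CPM per kb in the ZFmut libraries, against 60.46, 62.1 and 63.6 CPM per kb in the WT libraries. Over all exons, the only length summed, the inhibitor sums were well apart, while the cyclin sums met. The gap lay with CDKN1A (14.3 in ZFmut, 26.3 in WT) and CDKN2D (6.24 in ZFmut, 14.5 in WT). CDKN2C, CDKN1B and CDKN1C stood at 22.7, 15.2 and 4.00 CPM per kb in ZFmut, against 22.3, 16.8 and 2.67 in WT. The sums thus restate single genes and do not show the inhibitors lower as a class. CDKN2C made up 36.4 ± 1.37% of the inhibitor sum in ZFmut cells and 27.0 ± 1.65% in WT cells, and CDKN1A made up 22.9 ± 0.714% in ZFmut cells and 31.8 ± 0.57% in WT cells (SD, n = 3 each). CDKN2D made up 9.99 ± 0.414% in ZFmut cells and 17.6 ± 0.90% in WT cells. These shares are descriptions and move together by construction.

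**Figure D4:**
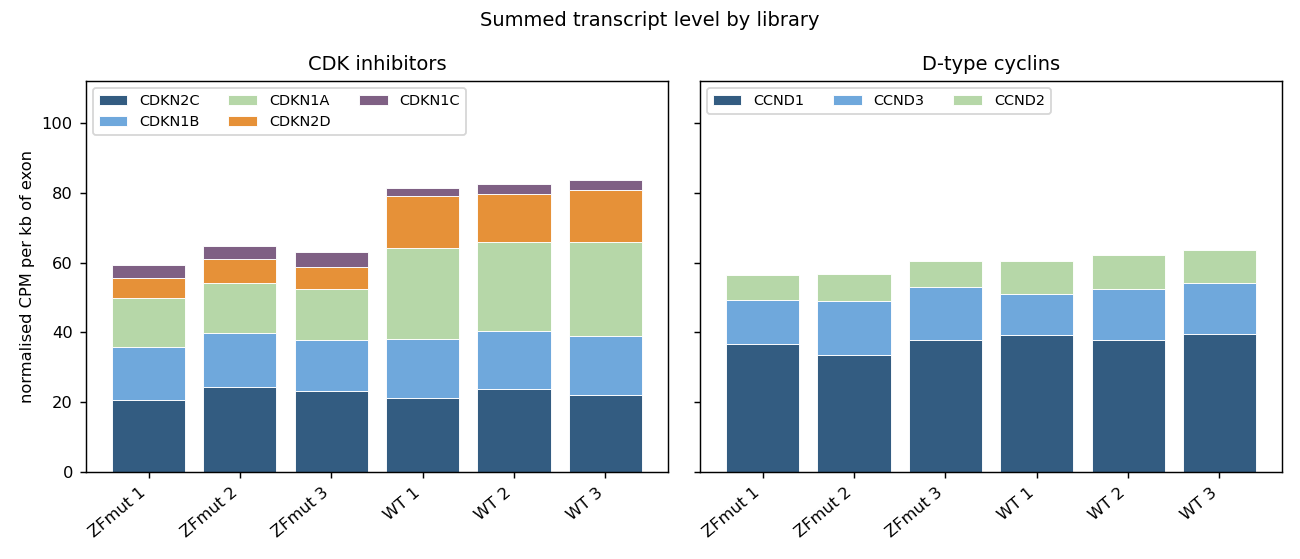
Stacked levels in normalised CPM per kb of exon (vertical axis, from 0) of the CDK inhibitors (left) and D-type cyclins (right) in the 3 ZFmut and 3 WT libraries. The inhibitor bars reach 59.35 to 64.72 in ZFmut and 81.42 to 83.79 in WT, and the cyclin bars 56.4 to 60.46 in ZFmut and 60.46 to 63.6 in WT.

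By the profile over the 6 libraries, the protein-coding genes nearest to CDKN1A among 11243 with at least 5 CPM were DACT1, GMEB1 and LDLRAD4, with root mean square differences of 0.0262, 0.0458 and 0.0473 on the log2 scale. DACT1 stood at 17.9 ± 0.396 CPM in ZFmut and 32.9 ± 1.68 CPM in WT. Nearest to CCND2 were PRKX, GADD45A and WWP2, with differences of 0.0171, 0.0207 and 0.023. All these genes were picked for their likeness in these same 6 libraries. Their similar group differences were thus fixed by the choice and are no test.

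The genes next to the members did not share one direction. KRI1, 425 bp from CDKN2D, was higher in ZFmut, at 51.9 ± 4.17 CPM against 37.9 ± 1.94 CPM in WT (log2 difference 0.45 ± 0.07, SE; edgeR adjusted p = 0.00012), although CDKN2D was lower. AP1M2, 3612 bp on the other side of CDKN2D, was lower (−0.30; edgeR adjusted p = 0.0123), a call lost without ZFmut replicate 2 or WT replicate 2 (edgeR adjusted p = 0.051 and 0.0695). SRSF3, the neighbour of CDKN1A at 70860 bp, was at 381 ± 16.0 CPM in ZFmut and 375 ± 10.96 CPM in WT and did not pass (edgeR adjusted p = 0.765), but it passed after the GC correction at 0.14. MYEOV, on the lower-coordinate side of CCND1, was higher (0.54; edgeR adjusted p = 0.00219), and so was BYSL, 1887 bp from CCND3 (0.22; edgeR adjusted p = 0.00459), whose call was lost after the GC correction (edgeR adjusted p = 0.0682). TAF8, on the other side of CCND3 (0.09, and a passing 0.12 after the GC correction), APOLD1 next to CDKN1B, SLC22A18AS next to CDKN1C and PARP11 next to CCND2 did not pass. FAF1, 482 bp from CDKN2C, did not pass (0.11; edgeR adjusted p = 0.114), but it passed with the replicate block (0.11; edgeR adjusted p = 0.0195), on leaving out ZFmut replicate 1 (0.14; edgeR adjusted p = 0.0342) and after the GC correction (0.17; edgeR adjusted p = 0.00228). TIGAR, 2413 bp from CCND2, did not pass (−0.15; edgeR adjusted p = 0.0805) and passed with the block (edgeR adjusted p = 0.0247). RAB44, GPR19, KCNQ1, FGF19 and C1orf185 were too low to test.

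The kinases that the members act on were higher in ZFmut in part. CDK4, the partner of the D-type cyclins, was at 174 ± 11.7 CPM in ZFmut and 138 ± 3.49 CPM in WT (SD, n = 3 each; log2 difference 0.33 ± 0.06, SE; edgeR adjusted p = 0.000408). CDK2, the main target of p21 and p27, was at 49.6 ± 1.24 CPM in ZFmut and 40.7 ± 1.31 CPM in WT (0.29 ± 0.06; edgeR adjusted p = 0.000965). CDK6, the other partner of D-type cyclins, was at 98.7 ± 13.8 CPM in ZFmut and 98.9 ± 1.51 CPM in WT and did not pass (edgeR adjusted p = 0.991), but it passed after the GC correction at 0.13 (edgeR adjusted p = 0.0306). CCNE2, an activator of CDK2, was lower, at 5.12 ± 0.433 CPM in ZFmut and 6.92 ± 0.431 CPM in WT (−0.44 ± 0.11; edgeR adjusted p = 0.00485), and CCNE1 passed only with the block or a GC correction (−0.21 without; edgeR adjusted p = 0.0686). CDC25C, a phosphatase that activates CDK1, was higher (0.26; edgeR adjusted p = 0.00802). Other genes share 43.2% of the exonic sequence of CDK4, 16.8% of CDK2 and 37.1% of CCNE2 on the other strand, which makes their counts less certain. Of 20 CDKs and later cyclins, 4 were higher and 2 lower, with a median log2 difference of −0.01 (0.04 with the GC correction) against −0.004 over all tested genes. The share called was 30%, against 35.6% of all tested genes. With the block 7 were higher and 4 lower, 7 were higher without ZFmut replicate 1, and 1 was lower without ZFmut replicate 2, ZFmut replicate 3, WT replicate 1 or WT replicate 3.

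Of 19 pocket proteins and E2F genes, which receive the CDK4 and CDK6 signal, 1 was higher and 6 were lower. The 36.8% called was near the 35.6% of all tested genes. Their median log2 difference was −0.07, which was −0.03 without WT replicate 1 and −0.12 without WT replicate 3. RB1 was at 59.9 ± 5.03 CPM in ZFmut and 74.6 ± 3.59 CPM in WT (−0.32 ± 0.06; edgeR adjusted p = 0.00132), and −0.18 after the GC correction. RBL1, which encodes p107, was at 21.6 ± 1.67 CPM in ZFmut and 30.2 ± 0.702 CPM in WT (−0.49 ± 0.07; edgeR adjusted p = 7.7e-05). RBBP4, a histone-binding partner of RB1, was also lower (−0.28; edgeR adjusted p = 0.0008; −0.17 after the GC correction), and E2F4, a repressive E2F, was higher (0.25; edgeR adjusted p = 0.00283), and 0.11 after the GC correction. RBBP4 shares 18% of its exonic sequence with SYNC. E2F1, an activating E2F, was at 61.2 ± 4.45 CPM in ZFmut and 55.3 ± 2.35 CPM in WT and did not pass (0.15; edgeR adjusted p = 0.0752). It passed with the replicate block (edgeR adjusted p = 0.00378), and also when ZFmut replicate 1 was left out (edgeR adjusted p = 0.00451), and its sign turned with the GC correction (−0.02; edgeR adjusted p = 0.681). Leaving out ZFmut replicate 3 or WT replicate 1 left 3 lower genes in this list, and 2 were higher without ZFmut replicate 1 or with the block.

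Of 17 genes that govern the turnover of the members' proteins, 1 was higher and 3 were lower. The 23.5% called was below the 35.6% of all tested genes. Their median was 0.03, which was −0.01 with the GC correction and 0.01 without WT replicate 3. SKP2, which marks p27 for degradation, was at 52.9 ± 1.62 CPM in ZFmut and 51.8 ± 1.92 CPM in WT and did not pass (0.03; edgeR adjusted p = 0.697), but it passed at 0.12 with the GC correction and the block (edgeR adjusted p = 0.0229). UBAC1, a subunit of a p27 ligase, was higher (0.23; edgeR adjusted p = 0.00373), and GSK3B, a kinase that marks cyclin D1 for export, was lower (−0.19; edgeR adjusted p = 0.00994). CUL4B, a ligase scaffold, and FBXO4, an F-box protein, were lower too (−0.20 and −0.36; edgeR adjusted p = 0.0132 and 0.0239). All 4 calls were lost after the GC correction, and with that and the block UBAC1 and GSK3B passed (0.10 and −0.09; edgeR adjusted p = 0.0196 and 0.0278). Leaving out WT replicate 3 also ended those of GSK3B, CUL4B and FBXO4 (edgeR adjusted p = 0.0544, 0.0684 and 0.0609), leaving out ZFmut replicate 3 those of CUL4B and FBXO4, ZFmut replicate 2 that of CUL4B and WT replicate 1 that of FBXO4. With the block 2 were higher and 6 lower, 2 were higher without ZFmut replicate 1, and 1 was lower without ZFmut replicate 3 and 0 without WT replicate 3. With the GC correction 4 other genes of this list were higher and 1 was lower. Under the correction and the block together, 6 were higher and 2 lower.

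Of 35 transcription factors and chromatin regulators known to act on the members, 6 were higher and 16 lower, with a median of −0.08. The 62.9% called is to be read against 35.6% of all tested genes. This list was chosen with earlier results of these data known. TBX2, a repressor of CDKN1A and of CDKN2A, was at 8.39 ± 0.444 CPM in ZFmut and 18.6 ± 0.736 CPM in WT (−1.14 ± 0.08; edgeR adjusted p = 6.18e-08). HES1, a Notch target that represses CDKN1B, was at 49.4 ± 1.03 CPM in ZFmut and 75.4 ± 0.63 CPM in WT (−0.61 ± 0.05; edgeR adjusted p = 3.97e-07). SMAD3, which carries the TGF-beta signal to CDKN1A and CDKN2B, was at 276 ± 11.5 CPM in ZFmut and 398 ± 14.6 CPM in WT (−0.53 ± 0.05; edgeR adjusted p = 3.17e-06). KLF4, an activator of CDKN1A, was at 22.7 ± 0.949 CPM in ZFmut and 35.2 ± 1.97 CPM in WT (−0.63 ± 0.07; edgeR adjusted p = 5.07e-06). MYC, which represses CDKN1A and CDKN2B and induces CCND2, was at 37.1 ± 2.097 CPM in ZFmut and 31.1 ± 1.86 CPM in WT (0.26 ± 0.07; edgeR adjusted p = 0.00755). The lower genes held both activators and repressors of the members.

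Of 22 S-phase genes, 11 (50%) were higher in ZFmut and 1 lower, with a median of 0.14. Over all tested genes 17.2% were higher. The lists were chosen with earlier results of these data known. The MCM2 helicase subunit was at 455 ± 41.3 CPM in ZFmut and 372 ± 21.8 CPM in WT (0.29; edgeR adjusted p = 0.00353), and TYMS, which makes thymidylate, was higher too (0.38; edgeR adjusted p = 0.000611), as was the chromatin assembly factor CHAF1A (0.21; edgeR adjusted p = 0.00449), whose call was lost after the GC correction but not after that with the block (0.09; edgeR adjusted p = 0.0236). RRM2, a subunit of ribonucleotide reductase, was lower (−0.29; edgeR adjusted p = 0.000537). Without WT replicate 1 or WT replicate 3, 7 S-phase genes were higher. Of 22 genes of G2 and M phase, 6 were higher and 0 lower, with a median of 0.07 and 27.3% called. Over all tested genes 35.6% were called. The mitotic factor FOXM1 (0.36; edgeR adjusted p = 0.000171), the kinase PLK1 (0.36; edgeR adjusted p = 0.000258), the APC/C activator CDC20 (0.33; edgeR adjusted p = 0.000912) and the kinase AURKB (0.25; edgeR adjusted p = 0.00277) were among them. With the GC correction 13 of this list were higher, while the differences of CDC20, AURKB and MCM2 shrank to 0.20, 0.14 and 0.16. Shared exonic sequence of 46.6% in TYMS, 23.6% in MCM2, 20.2% in RRM2, 15.9% in FOXM1 and 12.5% in PLK1 makes those counts less certain.

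**Figure D5:**
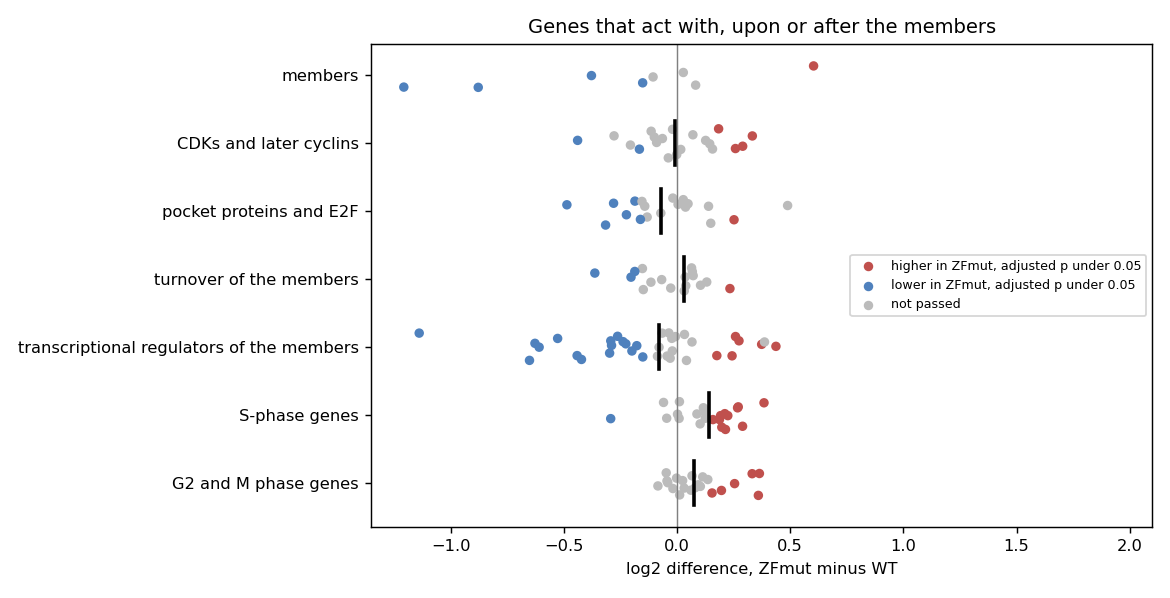
Log2 difference of ZFmut minus WT (horizontal axis) for the tested members (top row) and the tested genes of each list (rows below). Genes past an edgeR adjusted p of 0.05 are in red (higher in ZFmut) or blue (lower in ZFmut), and genes that did not pass are in grey. Black bars give the median of each row except that of the members. S-phase genes centre at 0.14. Among the rows below the members, the transcriptional regulators spread widest to the lower side, to TBX2 at −1.14. CDKN2D in the members' row lies lower, at −1.21.

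Over all lists, 137 of 148 genes were tested, 29 were higher and 28 lower, with a median of 0.01. With the GC correction 48 were higher. The 41.6% that passed compares with 35.6% of all tested genes. Markers of other cell types also differed between the groups. Summed markers of epithelial cells reached 0.848 to 0.876 CPM in ZFmut and 2.91 to 3.70 CPM in WT (1 of 2 tested lower, CDH1). Those of endothelial cells reached 2.45 to 2.69 CPM in ZFmut and 1.17 to 1.52 CPM in WT (3 listed, 2 tested, 1 higher). Those of immune cells reached 1.92 to 2.41 CPM in ZFmut and 1.21 to 1.5 CPM in WT (6 listed, 2 tested, 2 higher). The listed markers that were not tested were too low to test. Neuronal markers summed to 14.1 to 18.9 CPM in ZFmut and 21.2 to 23.2 CPM in WT (of 4 tested, 1 higher and 1 lower). Neural progenitor markers summed to 933 to 977 CPM in ZFmut and 872 to 905 CPM in WT (3 of 5 higher). Granule precursor markers summed to 69.4 to 75.0 CPM in ZFmut and 69.5 to 74.5 CPM in WT (6 listed, 4 tested, 0 called). No marker was at 0 in all 6 libraries. The mitochondrial share of counts was 3.25 to 3.40% in ZFmut and 3.95 to 4.02% in WT. The part of these markers and shares in the members' differences was not tested.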

How the data were processed

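RNA-seq of 3 ZFmut and 3 WT libraries was analysed. The authors deposited raw counts, unnormalised, 1 whole number per gene. The submitters' processing notes name the GRCh38 genome and the tools HTSeq, TopHat2 2.0.9, DESeq2 and cutadapt. Annotation release and strand options were not given in the sources used here. Per the labels' protocols the kit was NEBNext Ultra RNA, an unstranded kit, so overlapping genes on opposite strands cannot be told apart. Reads on several genes (7.71 to 8.08% of the total), outside genes (5.04 to 6.56%) or aligned to several places (16.1 to 19.4%) stood in 5 summary lines and were left out. GENCODE release 29 matched 94.1% of identifiers and gave symbols, lengths and GC content.

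ZFmut and WT libraries were compared using edgeR 4.0.16 under R 4.3.3 (TMM, filterByExpr, quasi-likelihood F test, all 6 libraries, no covariate, two-sided). The procedure was also run on simulated counts with a common dispersion and no shared deviation of same-numbered libraries. That run therefore cannot speak to the shared deviation described below. Gene counts per library ranged from 22236214 to 102730428 (4.62-fold) and no pair agreed within sampling noise; the biological coefficient of variation was 6.27%. The floor of 3 counts covers counting error only. Same-numbered libraries deviated together from their group means (correlations 0.532, 0.307 and 0.303 across genes, against −0.372 to 0.174 for other pairs). Centring each group ties the deviations of its libraries together, so this contrast is partly built in. It was clearest for replicate 1, at −0.372 to −0.326 with other numbers. Replicates 2 and 3 also correlated across numbers, at 0.174 and 0.141. The numbers may pair the libraries, as a reading of the data, and the main fit leaves this out. The source of the pairing is not in the labels. A fit with the replicate number as a block is given where it changes a call.

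Alternatives were median-of-ratios and upper-quartile scaling, DESeq2 1.42.0, limma-voom (limma 3.58.1), other filters, the transgene left out, corrections for GC content and length (loess, span 0.5), thinning and leaving out each library. The members and lists were chosen with earlier results of these data known. Named were all members, ZBTB7B, set pathway genes, the members' neighbours, and up to 4 called genes with the smallest p per list. Some results are not reported here. Promoter sequences came from RefSeq.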

Additional observations from a re-analysis of the deposited data

How the results depend on the processing

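The members were refitted under 17 alternatives, giving 136 values, of which 117 kept their direction and their side of the threshold. CDKN1A, CDKN1C, CDKN2D and CCND2 kept theirs under all 17. CDKN1B lost its call at −0.14 under median-of-ratios scaling, upper-quartile scaling, DESeq2 and no count filter, and at −0.17 to −0.13 on leaving out each library. CCND1 passed with the replicate block (−0.11), the GC and length correction (−0.13) and both (−0.14), and the block changed no other member's call. CDKN2C turned to −0.11 with the GC and length correction, to −0.10 with that and the block, and to −0.0145 and −0.0023 without ZFmut replicate 2 and WT replicate 1. CCND3 turned to −0.014 with the correction and −0.017 with both. Of 102 overall counts, which are those of members, all tested genes and all pathway genes in each direction and not those per list, 100 stayed within 1.5 times, and the higher genes over all pathway lists, 29 as reported, reached 48 with the correction and 56 with the correction and the block. Within that margin, the members lower in ZFmut, 4 as reported, were 3 on leaving out any library. They were 6 with the correction, without and with the block. Leaving out each library gave 2266 to 3934 higher and 2504 to 3782 lower genes over all tested genes. Counts per list, higher and lower in ZFmut, ran over 3 to 8 and 1 to 4 for CDKs and later cyclins (4 and 2 as reported), 1 to 3 and 3 to 8 for pocket proteins and E2F (1 and 6), 1 to 6 and 0 to 6 for turnover (1 and 3), 5 to 10 and 12 to 17 for transcriptional regulators (6 and 16), 7 to 16 higher for S-phase genes (11), and 4 to 14 higher for G2 and M phase genes (6). Of 728 values of 43 other genes 664 kept direction and side, 19 lost a call, 15 gained one and 30 changed sign. Among those near 0, CDK6 turned to 0.0078 (median-of-ratios), 0.0090 (upper-quartile), 0.0077 (DESeq2), 0.0076 (no filter), 0.13 and 0.13 (correction without and with the block), 0.011 (thinned) and −0.074 to 0.10 (range on leaving out each library). APOLD1 turned to 0.0062, 0.0067, 0.0087, 0.010, 0.014 (block), 0.038, 0.058, 0.059 and −0.036 to 0.082 in the same order. FOCAD turned to 0.054 and 0.049 (correction without and with the block), 0.029 (thinned) and −0.055 to 0.027. E2F1 turned to −0.021 and −0.023, and SLC22A18AS to −0.024 with the correction and ranged over −0.12 to 0.285 on leaving out each library. The cause was not tested. For CDKN2A and CDKN2B depth sets only a bound, since a count of 0 in a library allows an expected count of up to 3 reads. CDKN1C and CDKN2D have the fewest reads among tested members.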
